A study of Drosophila melanogaster with 3 samples.

Results

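The microRNA genes of Drosophila melanogaster were taken as the Ensembl genes whose symbol starts with mir-, which covers let-7, bantam and iab-4 as they are annotated. There were 262 such genes, and 260 of them lay on the 6 chromosome arms. Genes within 2 kb of each other were joined, which gave 206 loci, of which 26 held more than 1 gene and 180 held 1, with at most 8 genes in a locus. The median locus was 97 bp long. A locus was counted as having a summit when an E(z)-GFP peak summit lay within 2 kb of it, and 30 of the 206 loci, with 40 genes, had one in the optimal list.

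E(z) is the catalytic subunit of Polycomb repressive complex 2, which methylates lysine 27 of histone H3 and helps keep developmental regulators silent. In flies the complex is brought to Polycomb response elements by DNA-binding proteins, among them GAGA factor and Pho. MicroRNAs are short RNAs cut from hairpin transcripts, and bases 2 to 8 of the mature RNA, the seed, pair with target messenger RNAs. A microRNA hairpin often lies far from the start of its transcript, inside an intron of a protein-coding gene or inside a long noncoding RNA.

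Chromatin immunoprecipitation and sequencing was done on whole prepupae, the stage at which metamorphosis begins. The 3 biological replicates form the only group, so comparisons were made between replicates and between parts of the genome. All animals were of 1 transgenic line carrying E(z) with GFP at its C-terminus (E(z)-eGFP), males and females were pooled, and their age is given as unknown. The description names an anti-GFP antibody while the antibody field reads E(z), and the description was followed here. Each library is a mixture of all tissues, so a strong site in few cells and a weak site in many cannot be told apart, and the lists carry no RNA measurement. The optimal list held 5623 peaks of median width 424 bp, and each replicate's relaxed list held 30000. Peaks were ranked within a list by signal, rank 1 being the highest, and the 5623 highest peaks of a replicate are called its strong peaks. The rank of a locus in a list is that of its best peak summit within 2 kb in that list. The ranks of 1 locus in different lists can therefore belong to different peaks.

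The mature sequences below belong to the loci on which the results turn, with the seed in capitals. They were read from RefSeq's annotation of genome release 6. The first set shows the pair at the highest-ranked locus, which share a seed.
mir-279: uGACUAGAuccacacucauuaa
mir-996: uGACUAGAuuucaugcucgucu
The second set holds mir-92a and mir-92b, whose loci lie in the gene jigr1 and which share a seed with the mir-310 to mir-313 genes.
mir-92a: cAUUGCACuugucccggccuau
mir-92b: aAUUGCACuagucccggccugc
The third set holds other named microRNAs with a summit, each with a seed of its own among those printed. The pair mir-iab-4 and mir-iab-8 comes from opposite strands of 1 hairpin in the bithorax Hox cluster.
mir-ban: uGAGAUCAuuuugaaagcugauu
mir-275: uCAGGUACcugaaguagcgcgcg
mir-305: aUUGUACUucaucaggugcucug
mir-276a: cAGCGAGGuauagaguuccuacg
mir-282: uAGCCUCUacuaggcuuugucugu
mir-10: aCCCUGUAgauccgaauuuguu
mir-iab-4: aCGUAUACugaauguauccuga
mir-iab-8: uUACGUAUacugaagguauaccg

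Within 2 kb of an optimal summit, the share of microRNA loci lay between that of the bases of the arms and that of the 5' ends of protein-coding genes. In all, 30 of 206 microRNA loci had an optimal summit (14.6%, exact Clopper-Pearson interval 10.05 to 20.1%), against 19.0% of 13945 protein-coding genes and 12.9% of the bases of the arms. The interval for the microRNA loci, which covers counting error only, holds both of those shares. All other annotated genes reached 19.3%, transfer RNA loci 23.9% and small nucleolar RNA loci 27.5%. With the strong peaks of each replicate, 31, 29 and 35 microRNA loci had a summit in replicates 1, 2 and 3, which is 15.0, 14.1 and 17.0% (mean 15.4 ± 1.48%, SD, n = 3), against 19.7, 20.2 and 22.3% of protein-coding genes (20.7 ± 1.40%) and 13.0, 12.9 and 13.1% of the bases (13.0 ± 0.117%). In each replicate the microRNA loci lay below the protein-coding genes and above the bases. The measures are not alike, since a locus was measured from its edges (median length 97 bp, longest 2113 bp). Bases and 5' ends are single points, so a locus had a wider reach. With only the 2811 optimal peaks of higher signal, however, the share of microRNA loci was 6.80% (14 of 206), against 11.6% of protein-coding genes and 7.21% of bases. The order against the bases thus turned, by a small gap for which no interval was computed. The same 3 libraries give all of these shares, so no test between them was made.

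**Figure D1:**
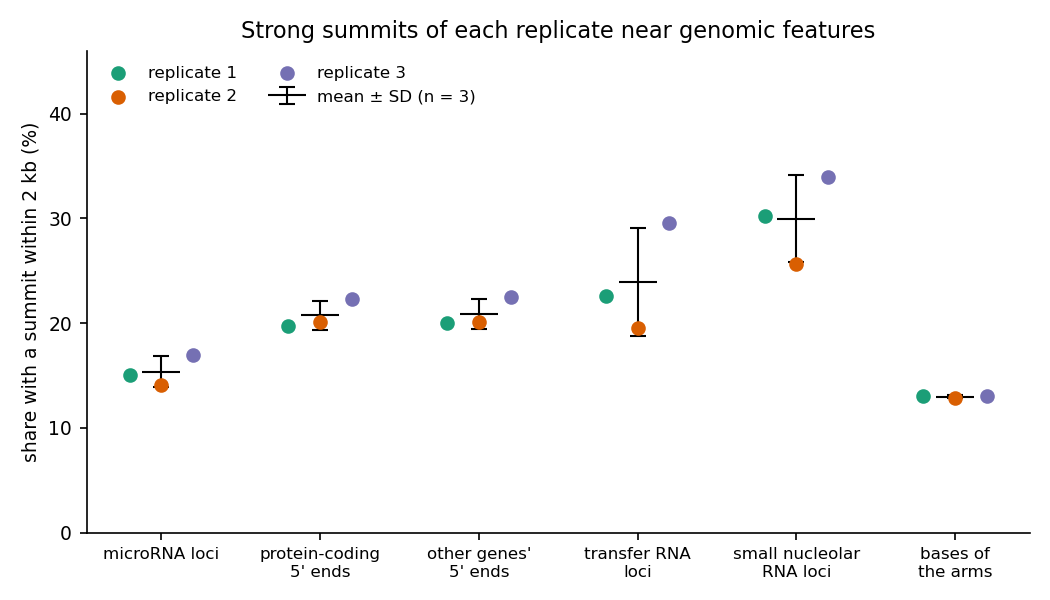
The vertical axis gives the share of each feature class within 2 kb of a strong peak summit, with 1 point per replicate and the mean ± SD (n = 3). MicroRNA loci lie at 15.0, 14.1 and 17.0%, below protein-coding 5' ends and above the bases of the arms in each replicate.

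The order of these classes changed with distance, but some gaps were small and no interval was computed at the distances below, so counting error may cover them. Within 250 bp the share was 1.94% of microRNA loci, against 8.50% of protein-coding genes and 2.03% of bases, so here too microRNA loci were not above the bases. Within 500 bp the share was 4.85% of microRNA loci, against 11.1% of protein-coding genes and 3.93% of bases. Within 1 kb it was 9.22% of microRNA loci, against 14.1% of protein-coding genes and 7.29% of bases. Within 5 kb it was 32.0% of microRNA loci, against 30.8% of protein-coding genes and 25.3% of bases, so microRNA loci were no longer below protein-coding genes. The nearest optimal summit lay at a median of 9486 bp from a microRNA locus (quartiles 3691 and 25068 bp), against 11174 bp from a protein-coding 5' end (quartiles 3433 and 25520 bp). Restricted to optimal peaks that both remaining replicates held, a smaller set, that median was 14552.5 bp without replicate 1 and 15513.5 bp without replicate 2.

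**Figure D2:**
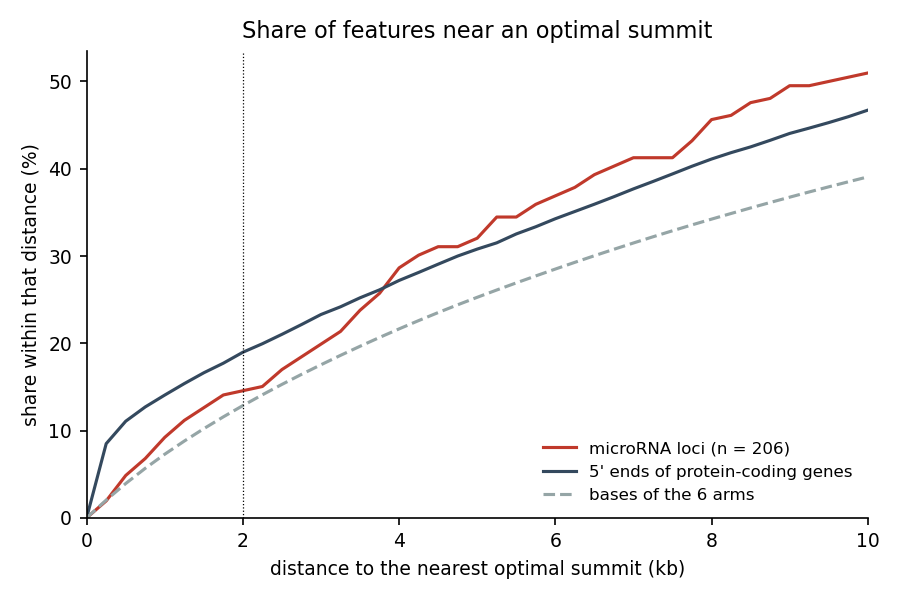
The horizontal axis is the distance to the nearest optimal summit and the vertical axis is the cumulative share of microRNA loci, protein-coding 5' ends and bases of the arms. At 2 kb, the dotted line, microRNA loci stand at 14.6%, protein-coding genes at 19.0% and bases at 12.9%.

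No summit lay inside a microRNA locus. Of the 30 loci with a summit, 10 had it within 500 bp, 9 between 500 bp and 1 kb and 11 between 1 and 2 kb, with a median of 847.5 bp and a range of 106 to 1876 bp. The highest-ranked summit lay upstream of the hairpin in 19 loci and downstream in 10, and the iab-4 and iab-8 hairpin is read from both strands. Just inside the 2 kb limit were the mir-281 pair at 1640 bp and mir-1012 at 1876 bp, and just outside it were mir-4949 at 2180 bp and mir-4943 at 2308 bp. In 11 loci that summit was within 1 kb of an annotated start of a protein-coding gene, in 19 it was farther, and in 10 it was more than 5 kb away. Of all 40 summits at these loci, 42.5% were within 1 kb of such a start, near the 40.8% over all optimal summits.

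**Figure D3:**
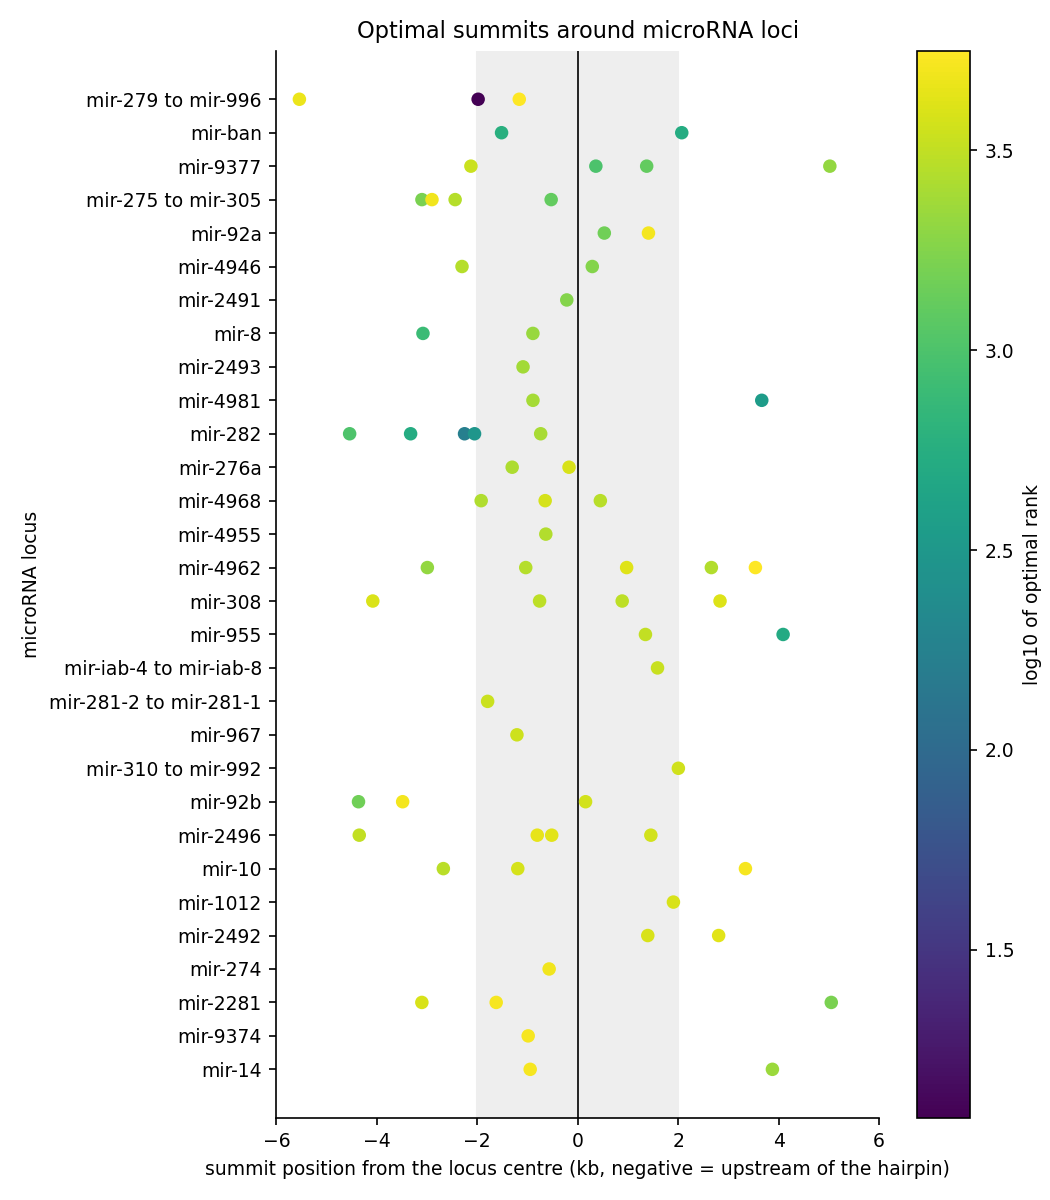
The horizontal axis is the position of each optimal summit relative to the centre of a microRNA locus in kb, with upstream to the left, and each line of points is 1 of the 30 loci, ordered by best rank. Color is the log10 of the optimal rank, and the grey band reaches 2 kb each side of the centre, while the 2 kb rule was measured from the edges of a locus.

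The 40 summits at these loci ranked somewhat lower than the list as a whole. Their median optimal rank was 3297, against 2812 over all optimal summits, and 37.5% of them, against 50.0% of all, were among the 2811 peaks of higher signal. They were found among the strong peaks of all 3 replicates in 50.0% of cases, against 55.9% of all optimal summits. The best rank of a locus had a median of 2924, and 3 of the 30 loci were in the first 1000. Of the 30 loci, 21 had a strong summit in all 3 replicates, 8 in a pair of them and 1 in a single replicate, while 29 had a peak in all 3 relaxed lists. Of the 176 loci without an optimal summit, 14 had a strong summit in at least 1 replicate and 0 had one in all 3, and 80 had no peak within 2 kb in any replicate's relaxed list.

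**Figure D4:**
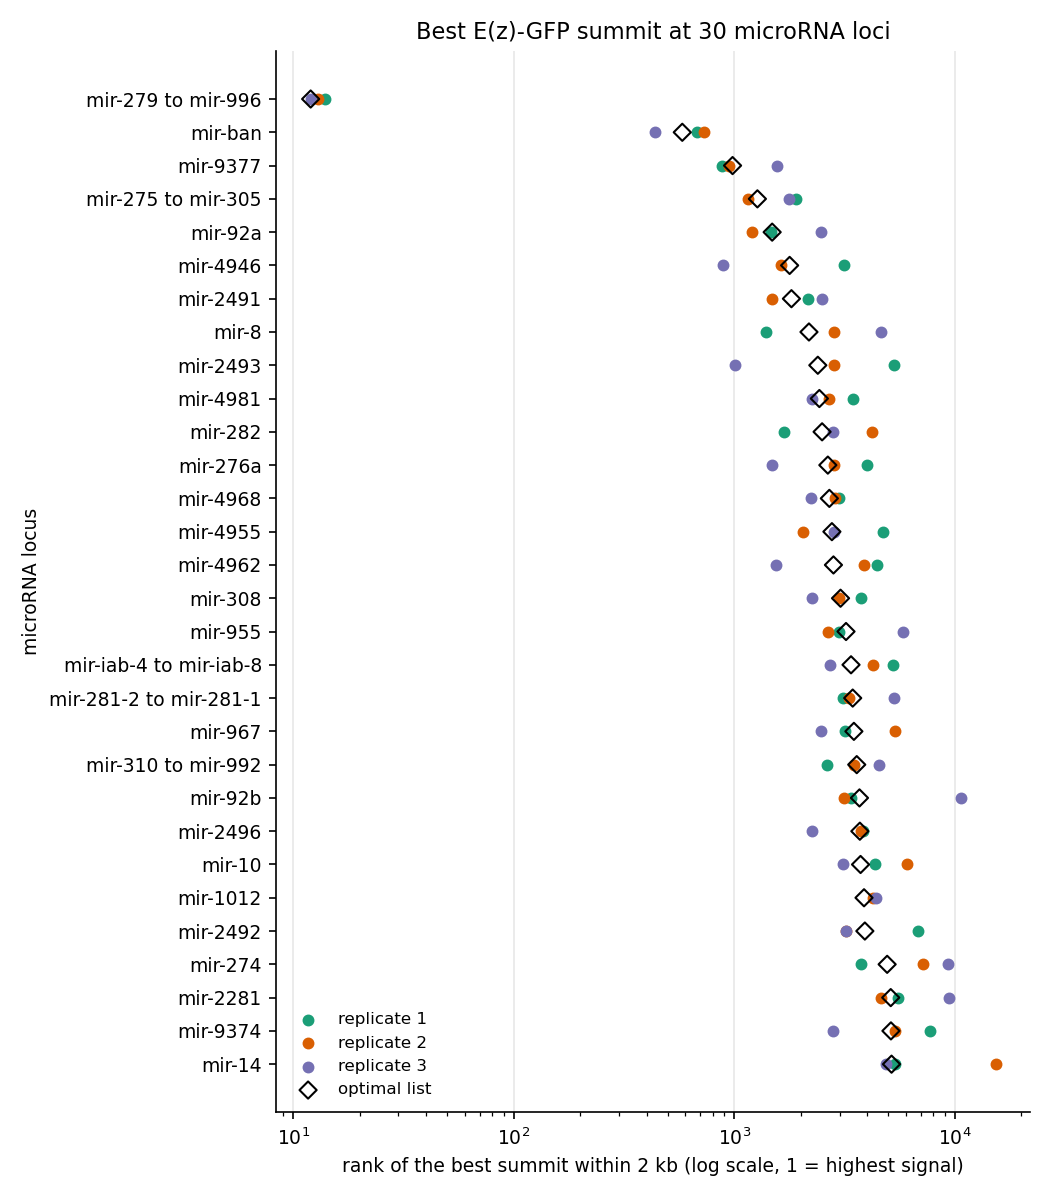
The horizontal axis is the rank of the best summit within 2 kb on a log scale, for each of the 30 microRNA loci, in replicates 1 to 3 (filled points) and in the optimal list (open diamonds). The locus of mir-279 and mir-996 lies at rank 12 in the optimal list, apart from the others, and most loci lie between ranks 1000 and 6000.

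The 2 loci of best rank had their hairpins in a noncoding RNA and in no protein-coding gene. The locus of mir-279 and mir-996, 2 microRNAs that limit the formation of carbon dioxide sensing neurons, ranked 12 in the optimal list and 14, 13 and 12 in replicates 1, 2 and 3. That summit was 1136 bp upstream of the hairpins and 113 bp from the start of their host, lncRNA:CR31044, and a weaker summit, of rank 5557, was 317 bp away. The ranks of the locus varied by 1.00 (SD, n = 3), less than at any other locus with 3 values. Bantam (mir-ban), which promotes growth and blocks cell death, ranked 581 in the optimal list and 675, 732 and 436 in the replicates, 1477 bp upstream of the hairpin. By summits within 2 kb it was the second locus in the optimal list, and all its replicate ranks were in the first 1000. That place hangs on the limit. Mir-282 had summits of rank 305 and 168 at -2055 and -2254 bp from the centre of its locus, negative being upstream. Bantam itself had another of rank 528 at 2071 bp from its centre.

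Mir-8, which acts in the fat body on growth, ranked 2181 in the optimal list and 1399, 2821 and 4621 in replicates 1, 2 and 3, at 850 bp. Mir-282 ranked 2501, and 1673, 4202 and 2804 in the replicates, at 690 bp. Mir-276a, known for a part in memory, ranked 2656, and 4014, 2845 and 1484 in the replicates, with its nearest summit at 125 bp. These 3 loci were in the strong peaks of each replicate, with no shared order of the replicates. Mir-10, in the Antennapedia Hox cluster, ranked 3737, and 4334, 6091 and 3098 in the replicates, at 1156 bp. Mir-14, which limits cell death and acts in ecdysone signalling, was the lowest of the 30 at rank 5164, with 5345, 15291 and 4883 in the replicates, at 916 bp. Replicate 2 thus stood apart at mir-14, far outside its strong peaks.

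Among the 18 loci inside a protein-coding gene, mir-9377 in an intron of Tis11, an RNA-decay factor, came first at rank 982, with 880, 947 and 1561 in replicates 1, 2 and 3 and a distance of 335 bp. Mir-92a and mir-92b lie in jigr1. Mir-92a ranked 1485, with 1468, 1206 and 2468 in the replicates, at 482 bp. Mir-92b ranked 3695, with 3383, 3158 and 10719 in the replicates, at 106 bp, the shortest distance of all 30, and replicate 3 was outside its strong peaks. The summit at mir-92a was 164 bp from a jigr1 start, and the one at mir-92b was 3417 bp from the nearest protein-coding start.

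The next hosted loci were mir-4946 in tup, a LIM-homeodomain gene, and mir-2491 in an intron of fog, which encodes a gastrulation signal. Mir-4946 ranked 1782, with 3142, 1625 and 887 in the replicates, at 232 bp. Mir-2491 ranked 1816, with 2162, 1482 and 2497 in the replicates, at 147 bp. Both were strong in each replicate, and replicate 3 was the higher one for the first and the lower one for the second. Mir-2493 in CG42788 ranked 2392, with 5317, 2831 and 1004 in the replicates. Its optimal summit was at 1037 bp and 30 bp from the host's start. That summit lay in no strong peak of replicate 1, so the 5317 there belongs to a peak that does not hold it. Mir-4968 in Mob2 had 3 summits, the best of rank 2698, with 2973, 2863 and 2237 in the replicates, and the nearest at 373 bp. Mob2 has starts 1427, 946 and 153 bp from those summits.

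Mir-4955 at an exon edge of trol, the perlecan gene, ranked 2771, with 4747, 2040 and 2840 in the replicates, at 552 bp and 33 bp from a trol start. Mir-4962 in Tlk, a protein kinase gene, ranked 2816, with 4425, 3854 and 1545, its nearest summit at 912 bp. Mir-308, in an intron of the ribosomal protein gene RpS23, ranked 3032, with 3744, 2976 and 2252, its nearest summit at 729 bp and 15 bp from the RpS23 start. In all 3 of these loci the best replicate rank was in replicate 2 or 3 and the worst in replicate 1. The hairpin of iab-4 and iab-8, which act on Hox genes, ranked 3383, with 5239, 4244 and 2711 in the replicates, at 1555 bp, and the nearest protein-coding start was that of abd-A at 27848 bp. This hairpin counts as hosted by a protein-coding gene through MSAmiP, and it also lies in lncRNA:iab4 and lncRNA:iab8. The mir-281 pair in Oda, the antizyme gene, ranked 3443, with 3108, 3302 and 5275, at 1640 bp.

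Mir-967 in bun ranked 3486, with 3184, 5368 and 2465 in the replicates, at 1163 bp and 7 bp from a start of bun. Mir-1012, a mirtron in Lerp, ranked 3875, with no peak in replicate 1 and 4242 and 4392 in replicates 2 and 3, at 1876 bp. The remaining 4 hosted loci, mir-2492 in Drak, mir-274 in CG32085, mir-2281 in cv-c and mir-9374 in Hr39, a nuclear receptor gene, ranked 3909, 4933, 5121 and 5132 in the optimal list, at 1357, 520, 1573 and 957 bp. CG32085 lies on the strand opposite to mir-274.

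Of the 5 loci with no host, mir-275 and mir-305 ranked 1273, with 1913, 1150 and 1767 in replicates 1, 2 and 3, at 405 bp. Mir-4981 ranked 2431, with 3471, 2677 and 2243, at 845 bp. Both had strong summits in each replicate, upstream of the hairpins. Mir-955 ranked 3211, with 2991, 2656 and 5806, at 1300 bp, and replicate 3 was outside its strong peaks. The cluster from mir-310 to mir-992 ranked 3591, with 2619, 3490 and 4523, at 1177 bp. Its optimal summit lay in no strong peak of replicate 3, so the 4523 there belongs to a peak that does not hold that summit. Mir-2496 had 3 summits, the best of rank 3710 and the nearest at 460 bp, and its replicate ranks were 3839, 3770 and 2258. The summit of rank 3710 lay in no strong peak of replicate 3, so the 2258 there belongs to a peak that does not hold that summit.

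Inside a protein-coding gene 18 of 144 microRNA loci (12.5%) had a summit, against 12 of 62 (19.4%) outside one. In replicates 1, 2 and 3 the share inside was 12.5, 13.2 and 15.3%. The 62 loci outside fell into 28 in a noncoding RNA only, of which 7 had a summit (25%), and 34 with no host, of which 5 had one (14.7%). The share of the 28 was 28.6, 17.9 and 32.1% in replicates 1, 2 and 3 (26.2 ± 7.43%, SD, n = 3), against 13.7 ± 1.45% of hosted and 13.7 ± 1.70% of unhosted loci. Among the bases of the arms the share within 2 kb of a summit was also highest in noncoding RNA genes, with 19.3% inside noncoding RNA genes only, 13.7% inside protein-coding genes and 10.5% outside both. The other 2 classes stood in the opposite order in the optimal list, since unhosted microRNA loci were above hosted ones and bases outside genes were below those inside protein-coding genes. Exact Clopper-Pearson intervals, for counting error only, were wide and overlapped. They were 4.95 to 31.1% for unhosted loci, 7.58 to 19.0% for hosted ones and 10.7 to 44.9% for the 28. In replicate 3 the unhosted share, 11.8%, was below the hosted share. With a long gene of any kind on either strand as the host, the shares were 14.5% inside and 14.7% outside. Each replicate was also left out, keeping only optimal peaks that both remaining replicates held, which are smaller sets of 3473 to 4080 peaks. Without replicate 1 the shares inside and outside a protein-coding gene were 9.72 and 11.3%. They were 7.64 and 14.5% without replicate 2, and 9.03 and 16.1% without replicate 3.

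The starts of the noncoding hosts were then examined, since a hairpin can lie many kilobases from its promoter. This comparison was chosen after seeing the values above. Of 36 noncoding genes with a microRNA on the same strand, 13 (36.1%, exact Clopper-Pearson interval 20.8 to 53.8%) had an optimal summit within 1 kb of an annotated start, against 15.0% of 2436 other long noncoding RNA genes and 16.1% of 13945 protein-coding genes. The count was 13 in each replicate as well, against 15.4 ± 0.623% of the other noncoding genes and 17.7 ± 1.71% of protein-coding genes (SD, n = 3). The hosts were not all the same. Replicate 1 held those of mir-92b and mir-375 in place of those of mir-184 and mir-bft. Replicate 2 held lncRNA:iab4 in place of the host of mir-14. With optimal summits found in all 3 replicates, 10 of 36 hosts (27.8%) had one, against 9.11% and 10.1%. Within 250 bp the shares were 25% of the microRNA hosts, against 5.21% and 10.4%. Some hosts have several starts, and among genes with 1 start the shares were 22.7% (5 of 22), against 14.6% and 10.7%. No test was made, because the hosts were chosen with the summits near their hairpins known, and 8 of the 13 loci also had a summit within 2 kb of the hairpin.

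**Figure D5:**
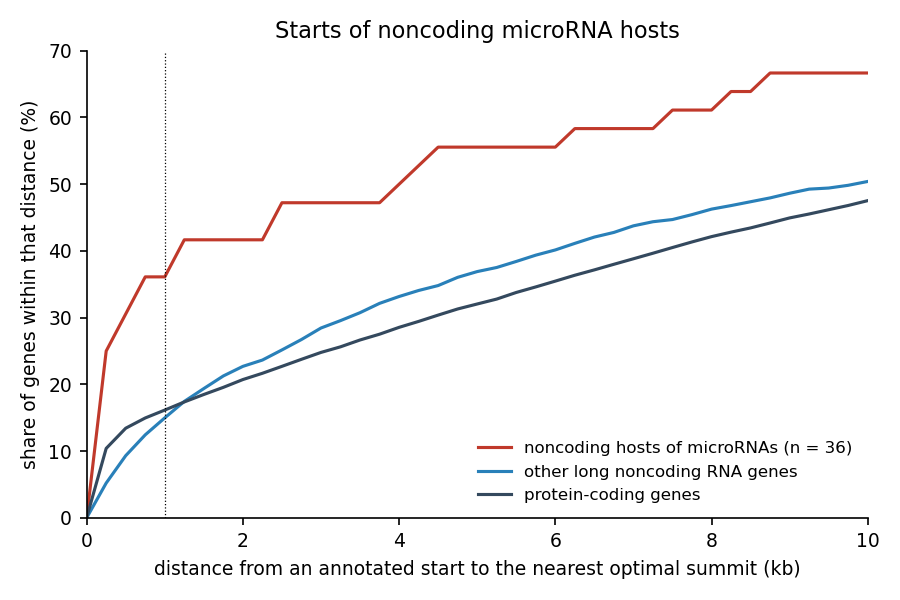
The horizontal axis is the distance from the nearest annotated start of a gene to an optimal summit and the vertical axis is the cumulative share of genes. At 1 kb, the dotted line, the 36 noncoding hosts of microRNAs stand at 36.1%, other long noncoding RNA genes at 15.0% and protein-coding genes at 16.1%.

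At 4 of the 8 loci with a summit at both places, the best summit within 1 kb of any start of the host ranked above the one within 2 kb of the hairpin. At 3 of these 4, mir-282, mir-8 and mir-276a, the summit near the hairpin was itself 262, 107 and 48 bp from an annotated start of the host, so both summits lie by starts. The summit by the start of lncRNA:CR43626, the host of mir-282, ranked 168 in the optimal list and 199, 99 and 428 in replicates 1, 2 and 3, 524 bp upstream. The one at lncRNA:iab8 ranked 384, with 885, 250 and 232, 107 bp upstream, and the one at lncRNA:CR43650, the host of mir-8, ranked 796, with 645, 506 and 2462, 702 bp upstream. Within 2 kb of the hairpins of the same loci the best ranks were 2501, 3383 and 2181. The summit at lncRNA:CR46006, the host of mir-276a, ranked 1639. The best replicate ranks by any start of this host were 2014, 1255 and 1484. The 1484 of replicate 3 is also the rank given for that replicate within 2 kb of the hairpin. It therefore appears to belong to a peak by the hairpin and not to the summit of rank 1639. The one at lncRNA:CR43334, the host of bantam, ranked 3507, with 4924, 2382 and 4956, 12 bp from the start, and here the summit nearer the hairpin was the higher one. The summit at asRNA:CR46194 by the mir-281 pair is the one already given, of rank 3443, and that at lncRNA:CR43651 by mir-14 is the one of rank 5164.

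For 5 loci the start of the host had a summit and the hairpin had none within 2 kb. The host of let-7, mir-100 and mir-125, lncRNA:let7C, is induced at metamorphosis, and its summit ranked 1288, with 1554, 1765 and 848 in replicates 1, 2 and 3, 576 bp downstream of the start. Mir-4951 lies in lncRNA:Hsromega, a heat-inducible nuclear RNA, with rank 1341, and 1374, 871 and 2909 in the replicates. Mir-9a, which acts in sense organ precursors, had 1655 at lncRNA:CR45916, with 1406, 1638 and 2835. All 3 were strong in each replicate. Mir-263a, annotated as mir-bft and known to protect sense organs from cell death, had 1999 at lncRNA:CR43314, with 6471, 1248 and 1284, 37 bp from the start, and replicate 1 was outside its strong peaks. Mir-184 had 4975 at lncRNA:CR44206, with 7707, 3464 and 4928, 2 bp from the start, and again replicate 1 was outside.

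Sequence around the summits is shown for 7 of these starts, 6 with a word of a known Polycomb recruiter and that of lncRNA:Hsromega with none, to set the ranks beside the DNA under them. Each window is 75 bases each side of the summit, on the strand of the host, in dm6, read from the RefSeq copy of genome release 6. Capitals mark the words GAGAG and GCCAT on either strand, so CTCTC and ATGGC are marked too. These are words of GAGA factor and Pho sites, and a match is not evidence of binding.
lncRNA:CR31044, chr3R:29214374-29214524, plus strand: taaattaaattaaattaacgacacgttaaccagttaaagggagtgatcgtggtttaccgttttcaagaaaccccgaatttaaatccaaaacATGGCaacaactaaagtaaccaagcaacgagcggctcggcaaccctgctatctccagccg
lncRNA:CR43626, chr3L:3248741-3248891, plus strand: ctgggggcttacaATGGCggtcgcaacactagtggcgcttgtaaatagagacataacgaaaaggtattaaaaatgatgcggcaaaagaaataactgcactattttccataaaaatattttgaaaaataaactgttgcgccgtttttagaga
lncRNA:iab8, chr3R:16899864-16900014, minus strand: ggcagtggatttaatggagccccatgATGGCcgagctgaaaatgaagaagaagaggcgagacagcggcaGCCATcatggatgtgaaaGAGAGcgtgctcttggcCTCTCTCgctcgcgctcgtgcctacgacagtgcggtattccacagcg
lncRNA:let7C, chr2L:18456218-18456368, plus strand: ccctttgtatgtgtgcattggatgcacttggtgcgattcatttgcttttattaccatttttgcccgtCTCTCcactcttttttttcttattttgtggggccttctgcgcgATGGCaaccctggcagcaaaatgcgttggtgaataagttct
lncRNA:CR43314, chr2L:11970982-11971132, minus strand: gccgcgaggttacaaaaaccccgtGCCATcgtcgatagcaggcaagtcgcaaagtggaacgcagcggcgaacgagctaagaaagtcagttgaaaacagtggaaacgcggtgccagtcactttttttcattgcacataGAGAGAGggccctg
lncRNA:CR43334, chr3L:628372-628522, plus strand: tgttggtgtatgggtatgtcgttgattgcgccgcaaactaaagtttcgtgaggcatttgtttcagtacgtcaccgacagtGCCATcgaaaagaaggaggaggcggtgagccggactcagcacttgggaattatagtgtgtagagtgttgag
lncRNA:Hsromega, chr3R:21296297-21296447, plus strand: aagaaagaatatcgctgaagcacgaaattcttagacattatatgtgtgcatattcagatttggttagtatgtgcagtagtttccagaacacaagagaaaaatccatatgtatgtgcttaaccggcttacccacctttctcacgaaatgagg
Over all optimal summits, GAGAG was in 21.1% and GCCAT in 20.6% of windows of this length. Over all 13 starts, GCCAT was in 7 (53.8%, exact Clopper-Pearson interval 25.1 to 80.8%) and GAGAG in 4 (30.8%, 9.09 to 61.4%). The share over all summits lay outside the interval for GCCAT and inside that for GAGAG. The interval covers counting error only, and the summits it is set against were not matched for lying by a start. The 13 starts come from a comparison chosen after seeing the data, so no conclusion is drawn. At the 40 summits by microRNA loci, with 100 bp each side, GCCAT was in 25%, below the 26.7% over all summits. Both words were found in the windows of lncRNA:iab8, lncRNA:let7C and lncRNA:CR43314, and neither in 5 of the 13, those of lncRNA:Hsromega, lncRNA:CR46006, lncRNA:CR45916, asRNA:CR46194 and lncRNA:CR44206.

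In windows of 250 bp each side of the 40 summits at microRNA loci, GAGAG was in 65.0%, against 59.5% over all 5623 optimal summits. GCCAT was in 55.0%, against 59.6%, and CGAC in 82.5%, against 87.3%. GTGT was in 97.5%, against 97.2%. CACACA, whose reverse complement holds GTGT, was in 62.5% (exact Clopper-Pearson interval 45.8 to 77.3%), against 44.1%. For CACACA alone the share over all summits lay outside the interval, which covers counting error only, and 5 words were examined. In windows of 100 bp each side CACACA was in 27.5% (interval 14.6 to 43.9%), against 16.6%, so the interval held the share over all summits and the exception was lost.

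The seed was read for 481 mature sequences of 260 genes, and 28 seeds occurred at more than 1 locus. Of these, 9 had a locus with a summit. A seed with several loci can have a summit at any of them, so the 9 of 28 cannot be set against the 14.6% of single loci. The share of seeds to be expected from that 14.6% was not computed. The seed AUUGCAC of mir-92a and mir-92b was the only one with a summit at every locus, 3 of 3, the third being the cluster that holds mir-310 to mir-313. The first 2 of those loci lie in 1 gene, jigr1, and are not independent. The seed AUCACAG of the mir-2, mir-5, mir-6, mir-11, mir-13 and mir-308 genes had a summit at 1 of 7 loci, that of mir-308, a share near the 14.6% over all microRNA loci. The seed GACUAGA of mir-279 and mir-996 is shared by mir-286, which had none, and mir-276a had a summit where mir-276b, with the same seeds, had its nearest at 3722 bp.

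Lists by known role were small, and their counts stand beside a share of 14.6% over all 206 microRNA loci, to which several are near. In the Hox clusters 2 of 3 loci had a summit, mir-10 and the iab-4 and iab-8 hairpin, while mir-993 had its nearest at 13271 bp. Of the 4 loci linked to timing and hormone response, mir-8 and mir-14 had one, and mir-100 to mir-125 (5010 bp) and mir-277 to mir-34 (12271 bp) had none. In muscle and mesoderm, mir-92a and mir-92b had a summit and mir-1, a muscle microRNA, had its nearest at 22873 bp. Among loci of the nervous system and sense organs, 2 of 10 had one, mir-276a and the mir-279 locus. The other 8 were mir-bft, mir-9a, mir-276b, mir-263b, mir-7, mir-190, mir-210 and mir-124, whose nearest summits were 3209 to 52072 bp away.

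For growth and cell death, 2 of 9 loci had a summit, bantam and mir-308. The locus of mir-2a-1, mir-2a-2 and mir-2b-2 and that of mir-11 were close to the limit, at 2684 and 2559 bp. The other 5, mir-2b-1, mir-13b-1 to mir-2c, mir-13b-2, mir-278 and the cluster from mir-6-3 to mir-309, had their nearest summits 7596 to 17857 bp away. In the mirtrons, whose hairpin is a spliced intron, 1 of 14 loci had a summit, mir-1012. Those without were mir-1003 to mir-1006, mir-1008 to mir-1011, mir-1013 to mir-1016 and mir-1007. The zygotic cluster at mir-309 (0 of 1) and the male germline clusters (0 of 4, at mir-959, mir-972, mir-977 and mir-978) had none, with a median distance of 37506.5 bp in the germline clusters. Over all lists 11 of 47 loci (23.4%) had a summit, against 19 of 159 (11.9%) in no list. In a grouping made after seeing the values, loci whose first number is below 400 or that carry a name had 15 of 58 (25.9%), with 31.0, 20.7 and 27.6% in replicates 1, 2 and 3, against 15 of 148 (10.1%) numbered 900 or above, with 8.78, 11.5 and 12.8%. The lower-numbered group had the larger share in each replicate, and microRNA numbers broadly follow the order of naming.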

How the data were processed

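E(z)-GFP was mapped in 3 replicates of 1 group. Per the labels and the text deposited with each sample, the authors made a relaxed list of peaks and background for each replicate and for the pool, and a smaller optimal list filtered on the irreproducible discovery rate. The aligner was not given in the sources used here, nor was the peak caller. Scaling of the deposited signal is not stated, so signal served for ranks inside 1 list alone. The deposited −log10 q-values were tied at their highest value, 3.97, for 4665 optimal peaks (83.0%) and were used only in an alternative. The deposited summit offset, a score in bases from the peak start, placed each summit. Depth per sample is unknown, and intervals (95%, exact Clopper-Pearson) cover counting error only. Each of the 5623 optimal peaks is also a pooled peak of equal signal. The dm3 lists were not used here, nor was the possible control experiment that the labels name.

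Genes came from Ensembl release 115 (BDGP6.54), and sequence and mature microRNAs from RefSeq genome release 6, in dm6 coordinates counted from 1. Distances were measured from the edges of a locus. A locus was in a host when the whole locus lay inside a gene, on either strand. With the protein-coding gene required on the same strand, 125 loci were hosted and 17 of them (13.6%) had a summit. Scripts used Python 3.11.15, numpy 2.4.6, pandas 2.3.3, scipy 1.17.1 and matplotlib 3.10.9, and were tested on simulated data. The members and gene lists were chosen with earlier results of these data known, so no p-value was computed. Every locus with an optimal summit within 2 kb was named, the 25 best by optimal rank with all replicate ranks, and so were the loci of the 8 lists. The starts of noncoding hosts, their alternatives, and leaving out replicates for the replicate share, the host shares and the distance were chosen after seeing the data.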

Additional observations from a re-analysis of the deposited data

How the results depend on the processing

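Of the alternatives, 26 moved by more than the replicate SD or the 95% interval, and 33 did not, although the wide intervals let some of these change by over 1.5 times. Among them were loci inside a protein-coding host, 12.5% as reported and 7.64% within 1 kb, and starts of noncoding hosts, 36.1% as reported and 22.7% among genes with 1 start. The share of microRNA loci with an optimal summit, 14.6% within 2 kb, was 4.85% within 500 bp, 9.22% within 1 kb and 32.0% within 5 kb. It was 6.80% with the 2811 higher-signal peaks and 8.74% with peaks found in all 3 replicates. With a replicate left out, only the 3473 to 4080 optimal peaks that both remaining replicates held were kept, and it was 9.71 to 11.2%. In those smaller sets protein-coding genes stood at 12.9 to 14.4% and bases at 8.69 to 9.89%. With the higher-signal peaks, protein-coding genes were at 11.6% and bases at 7.21%, above the microRNA loci, and with peaks found in all 3 replicates, protein-coding genes were at 11.9% and bases at 7.96%. The mean replicate share, 15.4%, was 1.46% with the top 1000 peaks, 24.1% with the top 2N peaks (N = 5623), 44.5% with whole relaxed lists and 9.39% within 1 kb. Averaged over the remaining replicates, each with all its strong peaks, it was 14.6 to 16.0%. The median distance was 3262 bp with the pooled list and 12732 to 15513.5 bp with the smaller sets of optimal peaks that leave out a replicate. The same smaller sets gave 7.64 to 9.72% inside and 11.3 to 16.1% outside protein-coding hosts, and 27.8 to 33.3% for starts of noncoding hosts. Ranked by −log10 q, the median best rank became 1 in the optimal, pooled and each replicate list, because the values are tied. Within 1 kb it was 3771.5 in the pooled list, 4028 in replicate 2 and 3491 in replicate 3. With windows of 100 bp each side, the shares at microRNA summits were 32.5% for GAGAG, 25% for GCCAT, 47.5% for CGAC, 27.5% for CACACA and 77.5% for GTGT, against 28.2, 26.7, 46.6, 16.6 and 76.2% over all summits. No paired analysis was possible because the labels give only 1 group. The small number of loci limits all shares, and depth is unknown.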
